A study of Homo sapiens with 12 samples.

Results

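The genes described are 7 members of the lipoprotein pathway, namely the apolipoproteins APOA1, APOA2 and APOE, the lipid transfer protein MTTP, the lipase LIPG, the lipase inhibitor ANGPTL4 and the receptor VLDLR. They were taken as the rows carrying these symbols in 2 deposited tables, 1 for each Huh7 clone, which together hold 2005 rows. Huh7 is a human hepatoma line. One clone carried an inducible construct for wild-type (WT) A1CF and the other a construct for its G398S form. Doxycycline, which switches the construct on, was given to or withheld from both clones. The 12 libraries form 4 groups with 3 in each, and total RNA was depleted of ribosomal and globin RNA before sequencing. Each construct was represented by 1 clone, all 4 groups carried a construct, and no group had doxycycline without one. Nothing in the labels says that the 3 libraries of a group were grown separately. The tables hold rows that the authors called as changed at a q below 0.05, so the members were chosen by the same fold changes and calls that are described here. The changes below are therefore descriptions with no test added. In bulk RNA, fewer cells expressing a gene and less of its RNA per cell cannot be told apart.

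Hepatocytes export fat and cholesterol as lipoproteins. MTTP loads lipid onto apolipoprotein B in the endoplasmic reticulum, and apolipoproteins A-I and A-II form the body of high-density lipoprotein, while apolipoprotein E lets remnant particles bind receptors of the LDL receptor family. Once in the blood, particles are trimmed by lipases that ANGPTL4 can restrain, and VLDLR takes up triglyceride-rich particles outside the normal liver. A1CF was first known as the RNA-binding cofactor that guides editing of the apolipoprotein B mRNA.

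With doxycycline the G398S clone had lower APOA1, APOA2, APOE and MTTP RNA, by about the same proportion for each. ANGPTL4 was also lower, though both of its values were low, and VLDLR was higher from a very low level. LIPG was the 1 gene of the 7 in the WT table, and it was higher with doxycycline. No member was in both tables, so each has a value in 2 of the 4 groups, and its levels in the other clone were not analysed here. A1CF itself was 3.08-fold higher with doxycycline in the G398S clone and 1.70-fold higher in the WT clone.

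For G398S, 5 members were lower and 1 was higher, where 10.9% of 17072 tested genes were called, 5.86% lower and 5.06% higher. For WT, 1 member was higher, where 0.94% of 15109 tested genes were called, 0.371% higher and 0.569% lower. A change of at least 2-fold was reached by none of the members, and by 0.41% (lower) and 0.961% (higher) of tested genes for G398S and 0.0596% (higher) for WT. At a q below 0.01 LIPG was not called, where 0.199% of tested genes were higher in the WT clone. ANGPTL4 was not called at that limit either, which left 4 lower members where 3.3% of tested genes were lower in the G398S clone. Since calling chose the members, nothing is read from these counts. Levels are in FPKM, fragments scaled to transcript length and to the mapped fragments, and each is the authors' pooled value for a group with no replicate spread. The deposited log2 fold changes are log2 ratios of the 2 levels with no pseudocount. As a guide to error, the log2 fold change divided by the deposited test statistic was taken as a standard error, and intervals cover 95% under a normal curve. They are approximate, since for all 7 members the p of the statistic under a normal curve was larger than the deposited p. For APOA1, for example, it was 0.00849 against 5e-05. An interval from the statistic can therefore include 0 for a gene that the authors called.

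**Figure D1:**
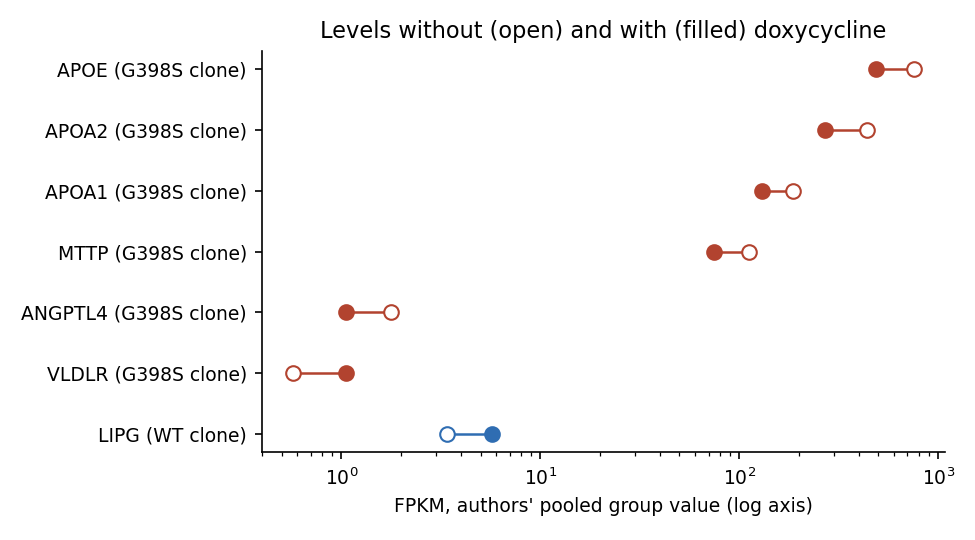
Levels of the 7 genes (FPKM on a log axis) without doxycycline (open circles) and with doxycycline (filled circles), 1 pooled value per group and no error available. Red marks the G398S clone and blue the WT clone. APOE, APOA2, APOA1 and MTTP lie between 74.3 and 753 FPKM and shift left, while ANGPTL4 and VLDLR lie between 0.568 and 1.76 FPKM and meet at about the same level with doxycycline.

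The apolipoproteins were the most abundant of the 7. APOE, the receptor ligand on remnant particles, went from 753 FPKM without doxycycline to 488 FPKM with it, so it fell by 35.2% (hg19 chromosome 19, 45409006 to 45412652). In the authors' deposited table its log2 fold change was -0.63 (interval -1.01 to -0.24, q = 0.00104). APOA2, the second protein of high-density lipoprotein, went from 441 to 270.2 FPKM and fell by 38.7% (chromosome 1, 161192074 to 161193418). Its log2 fold change in the authors' deposited table was -0.71 (interval -1.07 to -0.35, q = 0.00104). APOA1, the main protein of high-density lipoprotein and activator of the cholesterol-esterifying enzyme LCAT, went from 185 to 130.2 FPKM and fell by 29.7%. The authors' deposited table gave it a log2 fold change of -0.51 (interval -0.89 to -0.13, q = 0.00104). Of the 3, APOA2 lost the largest share of its level. APOE lost the most FPKM, since it fell by 265 FPKM, whereas APOA2 fell by 171 FPKM and APOA1 fell by 55.1 FPKM. Summed over the 3 genes the level went from 1379 to 888 FPKM.

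The APOA1 row is less certain than the others. It spans 262663 bases (chromosome 11, 116706469 to 116969131), 140 times the 1872 bases of the RefSeq gene. In RefSeq (GRCh38.p14) the next genes in that direction are APOA1-AS and SIK3, and SIK3 is 255027 bases long. Whether fragments of a neighbour entered the APOA1 value was not tested. On the other side APOA1 neighbours APOC3, APOA4 and APOA5, other apolipoproteins of the same cluster, which were not analysed here. The APOE and APOA2 rows match their RefSeq gene lengths to within 2%, as does that of MTTP.

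MTTP, the transfer protein that every apolipoprotein B particle needs, went from 111.5 to 74.3 FPKM (chromosome 4, 100485235 to 100545154), so it fell by 33.4%. In the authors' deposited table its log2 fold change was -0.59 (interval -0.95 to -0.22, q = 0.00104). MTTP therefore moved by nearly the same proportion as the 3 apolipoproteins. Set against the median of all 1863 rows of the table (-0.32), the intervals of APOA1 (-0.57 to 0.19), APOE (-0.69 to 0.08) and MTTP (-0.63 to 0.10) included 0, while that of APOA2 (-0.74 to -0.02) did not. That median is over called rows alone, which leave out genes near 0, so it follows the split of directions. It does not measure a shift common to all genes, and nothing is concluded from these centred intervals. Ratios of members within a group do not depend on how libraries were scaled. The ratio of APOE to MTTP was 6.75 without doxycycline and 6.56 with it, that of APOA2 to APOE was 0.586 and 0.554, and that of APOA1 to APOE was 0.246 and 0.267. In each of the 6 pairs among these 4 genes, the interval of the difference in log2 fold change spanned 0. All 4 were chosen as called falls, and the errors treat rows of the same libraries as independent. The intervals therefore cannot show that the changes were equal. The widest gap was that of APOA1 over APOA2, at 0.20 (interval -0.33 to 0.72), so a difference of up to 0.72 is within these errors.

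**Figure D2:**
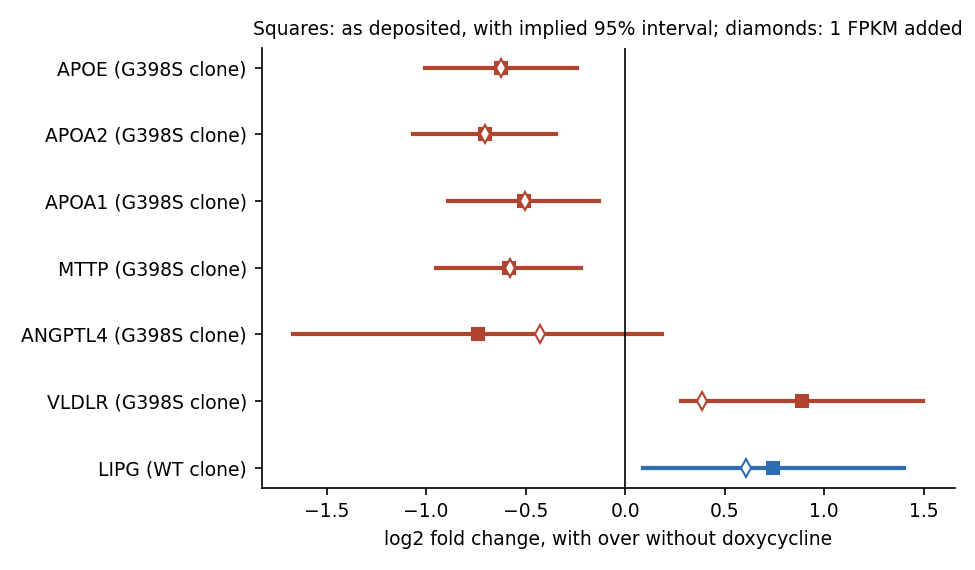
Change of each gene with doxycycline (log2 fold change on the x axis). Squares are the deposited values, bars the approximate 95% intervals from the deposited statistic, and diamonds the values with 1 FPKM added to both groups. The bars of APOE, APOA2, APOA1 and MTTP overlap each other and lie below 0, that of ANGPTL4 crosses 0, and the diamonds of VLDLR and ANGPTL4 lie nearer to 0 than their squares.

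LIPG encodes endothelial lipase, a phospholipase that acts mainly on high-density lipoprotein. In the WT clone it went from 3.41 FPKM without doxycycline to 5.71 FPKM with it, 1.67-fold higher (chromosome 18, 47087325 to 47119279). In the authors' deposited table its log2 fold change was 0.74 (interval 0.09 to 1.40, q = 0.0214). This change stood in the middle of the table, 30th in size of 56 rises. ANGPTL4, a secreted inhibitor of lipoprotein lipase that is induced in fasting, went from 1.76 to 1.06 FPKM in the G398S clone. The authors' deposited table gave it a log2 fold change of -0.74, with q = 0.0487, the value of the 7 closest to the limit of 0.05. Adding 1 FPKM to each level brought it to -0.43. Values of genes just outside that limit were not analysed here. The interval from its statistic, -1.67 to 0.19, included 0, while that from its deposited p, -1.27 to -0.21, did not. Its row covers 40307 bases (chromosome 19, 8429011 to 8469317) against 10216 for the RefSeq gene, and RAB11B-AS1 is the next gene in RefSeq. What RNA of that stretch adds to the value was not tested.

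VLDLR, a receptor for triglyceride-rich particles and for reelin, was the 1 member of the G398S table that was higher. It went from 0.568 to 1.05 FPKM, 1.85-fold (row on chromosome 9, 2535655 to 2656220). In the authors' deposited table its log2 fold change was 0.89 (interval 0.28 to 1.50, q = 0.00104), which shrank to 0.39 with 1 FPKM added to both groups. Its level stayed far under those of the apolipoproteins: APOE stood 1325 times above VLDLR without doxycycline and 464 times above it with doxycycline. The row spans 120566 bases, 3.15 times the RefSeq gene, and VLDLR-AS1 lies next to VLDLR in RefSeq. The sources used here do not say whether counting used strand, so VLDLR and VLDLR-AS1 reads may not be separated.

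Within the G398S table, abundant genes were lower more often than rare ones. Of 130 rows with a mean of at least 100 FPKM, 91 (70.0%) were lower, against 461 of 947 rows (48.7%) under 10 FPKM. Among the 130, APOA2 had the third largest fall, APOE the eighth and APOA1 the thirteenth. For those 130 rows the authors' deposited table gave a median log2 fold change of -0.34, nearer to 0 than that of any of the 3. The 130 include these 3 members and rows of both directions. For the 91 lower rows alone the median was -0.37. KRT19, a keratin, and ITGAV, an integrin subunit, were nearest to APOA1 by level in both groups (distances of 0.058 and 0.060 on the log2 scale over the 2 groups). SPINK1 and PCNA were nearest to APOA2 (0.21 and 0.28), and HIST1H2BH and HIST1H3A were nearest to APOE (0.12 and 0.42). MT2A and ERP29 were nearest to MTTP (0.072 and 0.13), ZNF774 and TNFSF10 to VLDLR (0.088 and 0.094), and RIBC2 and PLEKHG1 to ANGPTL4 (0.11 and 0.13). In the WT table UAP1L1 and SLCO4C1 were nearest to LIPG (0.0097 and 0.024). Because the distance uses both groups, a row close to a member has a similar change by construction, so nothing is read from these rows.

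**Figure D3:**
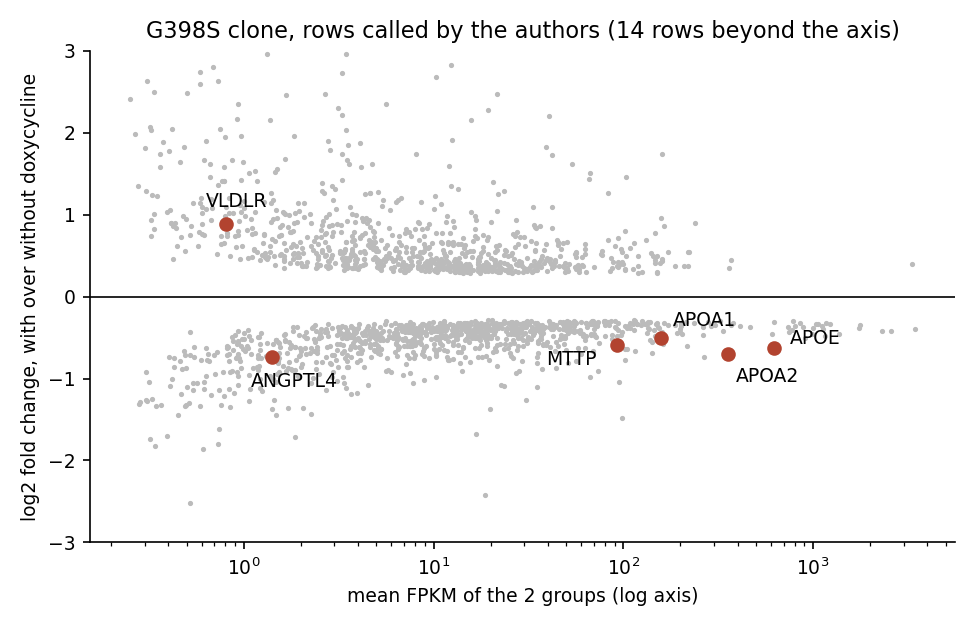
All rows of the G398S table (grey) by mean level (FPKM, log axis) and log2 fold change, with the 6 members in red. The 14 rows beyond the axis are not drawn. APOA2, APOE and APOA1 lie at the lower edge of the abundant rows, while ANGPTL4 and VLDLR lie among rare rows with wide changes.

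Direction in the G398S table also moved with the base composition of transcripts. For each row the share of A and T was taken from the longest coding transcript of that symbol in GENCODE v29, which matched 1689 of 1863 rows (90.7%). Of 540 rows under 45% A and T, 471 (87.2%) were lower with doxycycline, against 180 of 630 rows (28.6%) at 55% or more. The APOE transcript held 31.5% A and T, that of ANGPTL4 36.7% and that of APOA1 37.3%, so these 3 lower genes belong to the class in which most rows were lower. APOA2 had 45.5%, in the middle class, where 249 of 519 rows (48.0%) were lower. VLDLR, which was higher, had 57.3%. MTTP had 57.9% and was lower, which puts it with the smaller part of its class. Of rows at 55% or more with a mean of 50 to 200 FPKM, MTTP included, 23 of 71 (32.4%) were lower. In the WT table LIPG had 55.7%, and 25 of 51 rows in its class (49.0%) were lower, against 30 of 36 (83.3%) under 45%. What part base composition has in the members' changes was not tested.

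**Figure D4:**
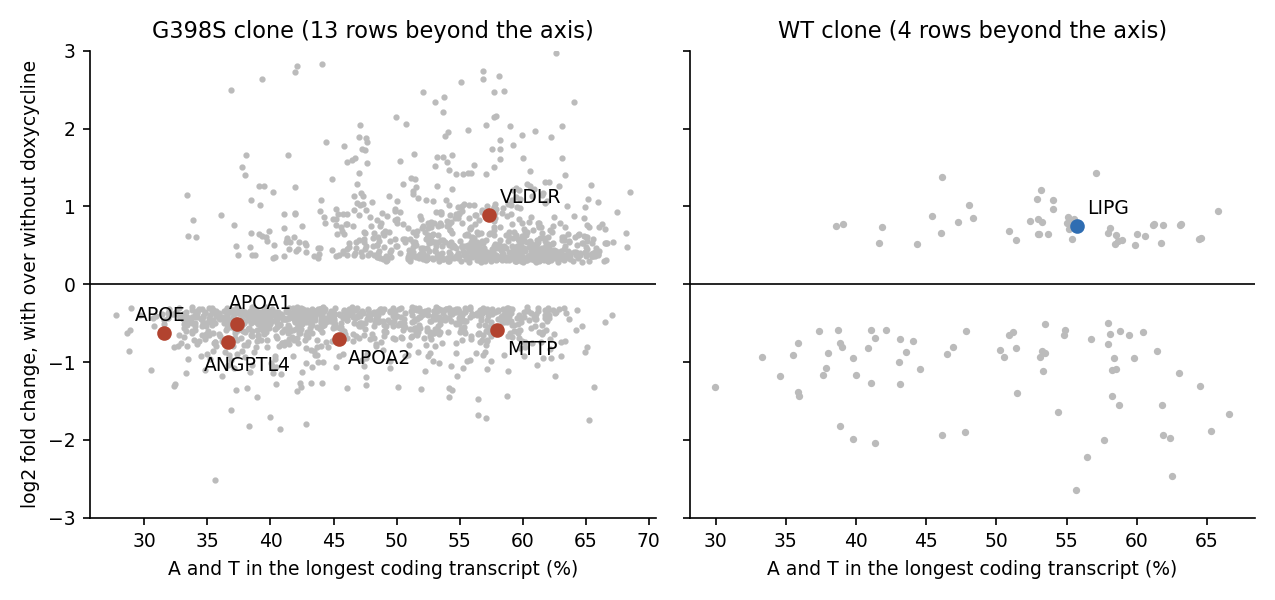
Share of A and T in the longest coding transcript (%) against log2 fold change for matched rows of the G398S table (left) and WT table (right), with members in colour. The 13 and 4 rows beyond the axis are not drawn. On the left, rows poor in A and T lie mostly below 0 and rows rich in A and T mostly above it, and MTTP lies below 0 at 57.9%.

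Since A1CF binds RNA, the same transcripts were searched on the sense strand for the 11-base mooring sequence of the apolipoprotein B editing site. APOB held 1 copy and none of the 7 members held any, where 13 of 19669 coding symbols (0.0661%) did. A set of 4 words rich in A and T, of the kind bound by A1CF in vitro, was searched too, each being TAATT with A or T before it and A or G after it. LIPG held 6 copies, VLDLR 5 and APOE 1, and none was found in APOA1, APOA2, MTTP or ANGPTL4. Per kilobase this was 0.57 for LIPG, 0.55 for VLDLR and 0.83 for the short APOE transcript, the last from 1 copy. The median per kilobase was 0 over all coding symbols and over lower G398S rows. It was 0.31 over higher G398S rows and 0.35 over higher WT rows. At least 1 copy stood in 42.6% of all coding symbols, in 68.6% of G398S rows that were higher and in 31.7% of those that were lower. The higher rows also had longer transcripts than the lower ones (medians of 4173 and 2939.5 bases) with more A and T (56.3% and 44.1%). LIPG and VLDLR have long transcripts rich in A and T (10441 and 9163 bases). What part length and base composition have in their copies was not tested. A match is a description of letters and shows no binding.

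The stretches before the gene starts of members that were lower together, and of VLDLR, which was higher, are printed to show how far they differ. They come from RefSeq (GRCh38.p14), run 5′ to 3′ on the gene's strand, and the longer stretches stop before any exon of the gene that GENCODE v29 places in the window. The short MTTP site lies inside such an exon, in its UTR, and the whole window of the second MTTP start lies within the MTTP gene, downstream of the first start. Capitals mark matches on either strand to the words searched.
APOA2, chr1:161223632-161223878 minus strand: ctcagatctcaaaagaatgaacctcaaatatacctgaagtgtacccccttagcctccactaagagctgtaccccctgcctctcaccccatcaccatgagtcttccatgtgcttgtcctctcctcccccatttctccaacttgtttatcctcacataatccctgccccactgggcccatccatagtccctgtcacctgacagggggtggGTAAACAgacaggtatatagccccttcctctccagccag
APOE, first start, chr19:44905546-44905753 plus strand: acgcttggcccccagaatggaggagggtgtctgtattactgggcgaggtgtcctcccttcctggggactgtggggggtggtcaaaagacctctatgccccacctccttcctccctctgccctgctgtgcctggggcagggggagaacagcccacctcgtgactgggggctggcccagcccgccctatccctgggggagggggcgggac
MTTP, second start, chr4:99574574-99574706 plus strand: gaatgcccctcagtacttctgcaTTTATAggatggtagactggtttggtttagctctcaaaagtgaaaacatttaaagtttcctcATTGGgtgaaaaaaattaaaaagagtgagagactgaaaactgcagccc
MTTP, site at 61 to 34 bases before the second start, chr4:99574763-99574790 plus strand: agtttggagtcTGACCTttccccaaaga
VLDLR, chr9:2621537-2621786 plus strand: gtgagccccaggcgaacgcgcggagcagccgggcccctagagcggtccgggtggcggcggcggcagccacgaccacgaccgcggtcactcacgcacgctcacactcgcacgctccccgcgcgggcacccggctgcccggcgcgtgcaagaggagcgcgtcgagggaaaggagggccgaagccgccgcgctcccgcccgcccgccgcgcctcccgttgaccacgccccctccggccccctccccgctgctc

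CpG pairs were counted in the 250 bases before each start. No window of APOA1 was used here. Of the other lower genes APOA2 had 0, APOE had 5, 9 and 11 at its 3 starts, MTTP had 17 at its first start and 1 at its second, and ANGPTL4 had 16. Of the higher genes LIPG had 18 and VLDLR had 41, and the median of 35116 RefSeq windows was 11. In the APOA2 stretch the capitals are a forkhead word, TGTTTAC on the other strand, found before the start in 2.98% of windows. The MTTP site holds a nuclear receptor half-site, AGGTCA on the other strand, found in 12.1%. The capitals in the longer MTTP stretch are TATAAA (10.7% of windows) and CCAAT (32.0%), each on the other strand. LIPG and ANGPTL4 held CCAAT and TATAAA respectively, and APOE held CCAAT within the exon at its first start and outside any exon of its own at its start 3, neither of which is printed. All words were searched on both strands, and several are not in the windows of the 6 members that have one. Direct repeats of the half-site with 1 or 4 bases between are in 0.0171% and 0.0142% of all windows. The HNF4 word CAAAGTCC is in 1.02% and the sterol word TCACNCCAC in 0.883%. The ATF4 word TGATGNAA is in 3.14% and the E-box CACGTG in 6.34%. The VLDLR stretch holds no match and lies within VLDLR-AS1, which is on the other strand. The MTTP row spans both RefSeq starts, so its FPKM does not say which start was used.

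The wider lipoprotein pathway was split in the G398S clone. Of 99 genes in 5 lists, 21 were in the table, 11 higher and 10 lower, where 10.9% of all tested genes were called, 5.06% higher and 5.86% lower. The median log2 fold change of the 21 was 0.33, which is the smallest rise among them, and that of all 1863 rows was -0.32. Medians here and below are over called rows, which leave out genes near 0, so they follow the split of directions more than the size of change. In the apolipoprotein list 4 of 23 genes were higher and 3 lower, the lower ones being APOA1, APOA2 and APOE. The higher ones were a serum amyloid row, APOL6, APOL2 and APOO, and the interval of APOO, -0.06 to 0.78, included 0. The largest rise was that of a row naming SAA2, SAA4 and their readthrough, serum amyloid proteins carried on high-density lipoprotein, from 14.5 to 66.5 FPKM. These are close paralogs, so their reads may be divided uncertainly. APOL6, an intracellular protein of the apolipoprotein L family, went from 0.503 to 1.16 FPKM. In the assembly list MTTP was the 1 gene lower, whereas ERLIN1, an endoplasmic reticulum membrane protein, was 1.61-fold higher. SEC24B, a coat protein of secretory vesicles, and a row naming CTAGE5 and MIA2, cargo receptors of that pathway, were 1.36-fold and 1.28-fold higher, the interval of the latter, -0.04 to 0.75, including 0. LIPA, the lysosomal lipase, was 1.33-fold higher.

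In the receptor list VLDLR and DAB2, an endocytic adaptor, were higher, and 4 of the 28 genes were lower. LRP5, a member of the LDL receptor family with a role in Wnt signalling, went from 31.2 to 19.4 FPKM. SDC1, a heparan sulphate proteoglycan that captures remnant particles, went from 52.3 to 35.6 FPKM. LRP8, like VLDLR a reelin receptor, went the other way from VLDLR, from 4.26 to 3.07 FPKM, and the interval of its log2 fold change, -1.03 to 0.09, included 0. Of the efflux list NPC1, which moves cholesterol out of lysosomes, was 1.61-fold lower, with an interval of -1.42 to 0.05. SOAT1, which esterifies cholesterol, was 1.26-fold higher, with an interval of -0.03 to 0.69. Of the 10 lower genes 6 were under 45% A and T and 1, MTTP, was at 55% or more, while of the 11 higher genes none was under 45% and 6 were at 55% or more. Leaving out the members, 3 of 5 lower genes and 0 of 10 higher genes were under 45%. In the WT table LIPG was the 1 gene of the 99, where 0.94% of all tested genes were called.

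**Figure D5:**
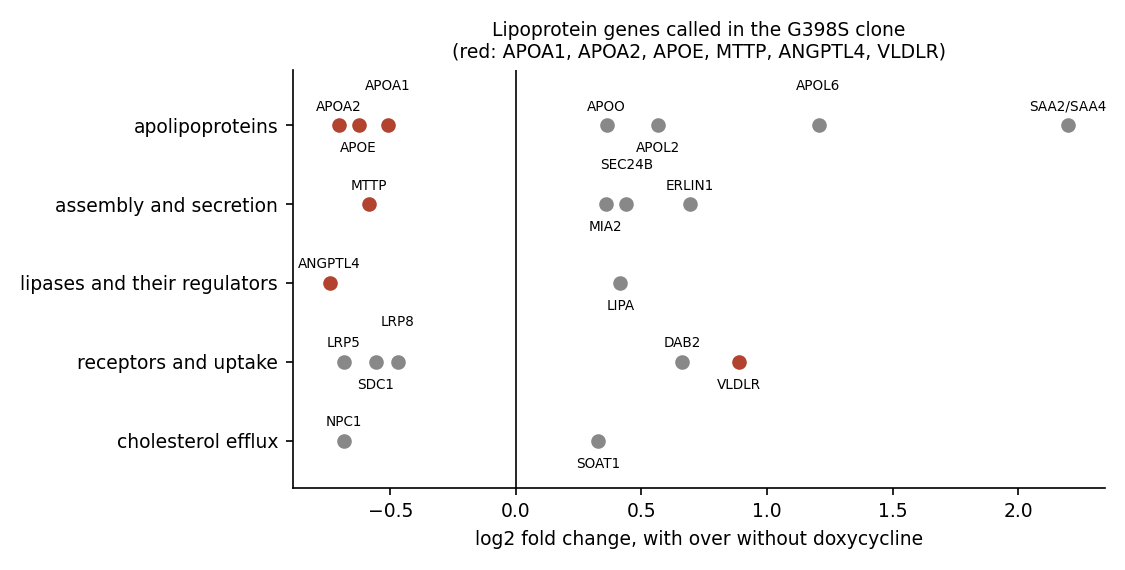
Log2 fold change in the G398S clone (x axis) of the lipoprotein genes in the table, by list, each point 1 row and red points the 6 members. One lower gene is not drawn. The lower genes drawn lie between -0.74 and -0.47, while the 11 higher genes spread from 0.33 up to the serum amyloid row, which stands apart on the right.

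Regulators of these genes moved both ways. The counts of G398S calls in this and the following lists stand beside 10.9% of all tested genes called, 5.06% higher and 5.86% lower, and those of WT calls beside 0.94%. Of 37 transcription factors and cofactors, 10 were listed for G398S, 5 higher and 5 lower (median log2 fold change 0.10). NR0B2, a repressor of nuclear receptors, fell from 0.957 to 0.264 FPKM, and CREB3L3, a liver activator of apolipoprotein genes, from 0.769 to 0.369 FPKM. PPARGC1A, a coactivator, was at 0.195 FPKM without and 0.462 FPKM with doxycycline, and NR2F2, an orphan nuclear receptor, at 0.653 and 1.24 FPKM. All 4 had under 1 FPKM without doxycycline. Other listed regulators stood at higher levels and also moved both ways. Among them CEBPA went from 174.5 to 134.2 FPKM and EPAS1 from 37.5 to 55.9 FPKM. In the WT clone INSIG1, the sterol-regulated retention factor of SCAP, was 2.12-fold higher. HNF4A was not analysed here.

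Among 22 PPAR targets, the group to which ANGPTL4 belongs, 4 were higher and 6 lower in the G398S clone, where 5.06% and 5.86% of all tested genes were (median log2 fold change -0.58). In the authors' deposited table CIDEC, a lipid droplet protein, and CREB3L3 fell by 1.79 and 1.06 on the log2 scale. ACSL1, an acyl-CoA synthetase, was 1.98-fold higher in the G398S clone, whereas in the WT clone it was at 21.1 FPKM without and 14.1 FPKM with doxycycline. Of 21 plasma protein genes that depend on HNF4A, 2 were higher and 5 lower (median log2 fold change -0.37), APOA1, APOA2 and MTTP being 3 of the lower ones. HP, haptoglobin, was 4.44-fold higher and RBP4, the retinol carrier, 1.46-fold higher. Of 13 LXR targets APOE was lower and SMPDL3A, a secreted phosphodiesterase, was 1.48-fold higher, while in the WT clone the desaturase SCD, which makes monounsaturated fatty acids, went from 74.0 to 158 FPKM.

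VLDLR is a target of both ATF4, a factor of amino acid stress, and hypoxia-inducible factors. Of 20 ATF4 targets 5 were higher and 5 lower in the G398S clone (median log2 fold change 0.13), while in the WT clone 5 were higher and none lower (0.78). Of all tested genes 10.9% were called for G398S and 0.94% for WT. In the G398S clone GDF15, a stress hormone, was 2.11-fold lower, CEBPB, a transcription factor, 1.78-fold higher and STC2, a secreted glycoprotein, 1.70-fold lower. In the WT clone STC2 and ASNS, asparagine synthetase, were 1.81-fold and 1.79-fold higher, and SLC7A11, the cystine transporter, 1.51-fold. TRIB3 and DDIT4 were higher in both clones, 1.72-fold and 1.67-fold for WT and 1.57-fold and 1.53-fold for G398S. Of 18 hypoxia targets, 3 were higher and 5 lower in the G398S clone, beside 5.06% and 5.86% of all tested genes (median log2 fold change -0.36), so VLDLR and ANGPTL4 fell on opposite sides. BHLHE40, a circadian repressor, was 2.08-fold higher in the G398S clone and 2.03-fold higher in the WT clone. EGLN3, an oxygen sensor, went from 2.74 to 4.10 FPKM in the G398S clone. The lower genes beside ANGPTL4 were SLC2A1 (9.83 to 6.72 FPKM), HILPDA (15.5 to 10.8), ADM (24.0 to 17.8) and EGLN1 (21.3 to 17.5). The interval of EGLN1, -0.65 to 0.07, included 0.

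Of 16 hepatocyte markers 5 were in the G398S table, 2 higher and 3 lower, with summed levels of 373 and 389 FPKM without and with doxycycline. The sum covers these 5 alone. It is mostly RBP4 (140.5 to 205.5 FPKM) and TF (227.2 to 177.8 FPKM), which went opposite ways, so it does not show a steady level. CPS1, of the urea cycle, went from 0.591 to 1.71 FPKM and RBP4 was 1.46-fold higher, while TAT, the tyrosine aminotransferase, was 1.96-fold, ASGR1, the asialoglycoprotein receptor, 1.41-fold and TF, transferrin, 1.28-fold lower. The intervals of ASGR1 (-1.10 to 0.11) and TF (-0.72 to 0.01) included 0. ALB and AFP were not analysed here. The erythroid markers listed were all globins, and their levels differed with doxycycline in both clones. Globin RNA was depleted before sequencing, and what part depletion has in these levels was not tested. For G398S 4 of 11 were listed, all globins and all higher, and their sum went from 183 to 4535 FPKM. For WT 3 were listed, 2 lower and 1, HBA2, higher with an interval of -1.14 to 7.29, and the sum went from 37206 to 337 FPKM. Globin genes are near-identical in pairs, so reads may be divided uncertainly among them. The defining red cell markers ALAS2 and SLC4A1 were not analysed here. Depending on the scaling, whose settings are not given, a rise in an abundant RNA can lower the FPKM of others in the same libraries. A fall, like that from 37206 to 337 FPKM in the WT clone, can raise it. The part of globin RNA in the changes of the members and A1CF was not tested in either clone. No enterocyte (7), macrophage and endothelial (9) or adipocyte (5) marker was in either table.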

How the data were processed

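RNA from 12 Huh7 libraries was sequenced. Among tools, the submitters' processing notes list Cufflinks 2.2.1, STAR 2.5.0b and bcl2fastq 2.9.1, and Cuffdiff with no version. The build they list is hg19. Tool settings and the handling of strand are not given in these sources.

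Per the file headers, the 2 deposited tables give 1 FPKM per group (the authors' pooled value), a log2 fold change, a statistic, which is the score behind the authors' test, and a p-value with its q-value. The groups of 1 table are named as mutant, which is G398S. Those of the other are named only control and treated, and WT comes from its deposited title. Each was normalised on its own. Library depth is unknown, since no counts are given. Starts were read as counted from 0 (52 G398S rows then equal their RefSeq gene length, against 16 under the other reading) and 1 was added.

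The number of genes tested, 15109 for WT and 17072 for G398S, is the smallest that makes every rank (p times that number over q) whole, and the method returned the true number in 4 of 4 simulated sets. The ranks imply 172 and 2114 calls, of which 142 and 1863 were analysed here. A gene's absence from the tables therefore does not show that it was uncalled or unchanged. Python 3.11.15, pandas 2.3.3 and scipy 1.17.1 were used.

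The members and lists were chosen with earlier results of these data known. Older symbols were matched through RefSeq synonyms. Genes named beside the members were all list genes in a table where there were at most 6, otherwise the 4 with the largest absolute log2 fold change, and the 2 rows nearest to each member by level. Beyond that rule, APOL2, APOO, CEBPA, EPAS1, SLC2A1, HILPDA, ADM and EGLN1 were named to show further listed genes. Added after seeing the files were the base composition classes and the transcript words. Some genes and words that the rules select are not reported here. Alternatives were a pseudocount of 1 or 0.1 FPKM, centring on table medians, a q of 0.01, a log2 fold change of at least 1 and a minimum of 1 FPKM.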

Additional observations from a re-analysis of the deposited data

Results flagged for a closer look

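Among genes of the lists that are in both tables, 5 changed in opposite directions with doxycycline in the 2 clones. Each was called in both clones, so a difference interval that leaves out 0 was nearly fixed by that choice. It adds no evidence that the clones differ. The difference in log2 fold change, G398S minus WT, was 1.57 for ACSL1 (interval 0.92 to 2.23), -1.19 for ASNS (-1.86 to -0.52) and -1.62 for STC2 (-2.51 to -0.73). It was 12.08 for HBG1 (10.53 to 13.64) and 11.98 for HBG2 (10.56 to 13.40), which are near-identical globin genes. Since globin RNA was depleted before sequencing, what part depletion has in these 2 differences was not tested. For ASNS the interval of the fall in G398S alone, -0.74 to 0.04, included 0. A1CF was higher with doxycycline in both clones, and its difference of 0.86 was beyond the errors from the statistic (0.24 to 1.47) but not beyond those from the deposited p. That p was 5e-05 in both clones, the smallest value given, so it sets only an upper limit to the error. The errors come from the authors' statistics on pooled values, the tables were normalised separately, and each construct is 1 clone, so construct and clone cannot be told apart. No member could be compared in this way, because none is in both tables.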

How the results depend on the processing

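All 7 members kept their direction with 1 or 0.1 FPKM added and with changes centred on a table median. VLDLR moved by more than its implied error when 1 FPKM was added, to a log2 fold change of 0.39. Centred on the median of all rows of the table (-0.32 in G398S, -0.66 in WT), values were -0.19 for APOA1, -0.38 for APOA2, -0.30 for APOE, -0.26 for MTTP, 1.21 for VLDLR, 1.40 for LIPG and -0.42 for ANGPTL4. Centred on rows of at least 100 FPKM (-0.34 and -0.60) they were -0.17, -0.37, -0.29, -0.25, 1.22, 1.34 and -0.41 in the same order. With either centre the intervals of APOA1, APOE, MTTP and ANGPTL4 included 0. These medians come from called rows alone, which leave out genes near 0. They follow the split of directions and do not measure a shift common to all genes. At a q of 0.01 LIPG and ANGPTL4 were lost, leaving 0 members in the WT table and 4 lower ones for G398S, and with at least a 2-fold change required there were 0 members higher in WT, 0 higher in G398S and 0 lower in G398S, by the construction of that limit. For A1CF the larger rise in G398S, 0.86 on the log2 scale, was not called with errors taken from the deposited p (interval -0.01 to 1.72). That p was 5e-05 in both clones, the smallest value given, so errors from it are upper limits and this interval cannot decide. No paired analysis was possible because the tables hold 1 pooled value per group, and for the same reason no replicate could be left out. Values under about 2 FPKM, those of VLDLR and ANGPTL4, are the least certain.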
